A study of Mus musculus with 7 samples.

Results

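The mRNA levels of 31 genes of cholesterol and fatty acid synthesis were followed in mouse skin papillomas with and without forced expression of the pluripotency factor Nanog. The genes were picked by symbol, and all 31 were found among the 23284 symbols in the 7 files, 30 of them with a mean level of at least 0.5 FPKM (fragments per kilobase of transcript, scaled to the mapped reads of the library). The gene below that level was Elovl3. TG minus CTR differences were known when the genes were listed, so they are given here as a description. Counts of limma calls among the members stand beside the share over all genes, and nothing is read from them.

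Papillomas were raised on C57Bl/6 background skin with the carcinogen DMBA followed by the tumour promoter TPA, and every mouse drank doxycycline at 2 mg/ml for the whole protocol. The 4 control (CTR) papillomas came from different mice with the tetO-Nanog transgene but no transactivator. The 3 transgenic (TG) papillomas came from different mice that carried tetO-Nanog together with K5-rtTA, in which a keratin 5 promoter drives the doxycycline-dependent transactivator in basal keratinocytes. Each papilloma gave 1 poly(A) RNA-seq library of the whole lesion. In such bulk RNA, fewer cells of a type and less RNA per cell cannot be told apart.

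Cholesterol is built from acetyl-CoA by way of mevalonate, farnesyl diphosphate and squalene, and fatty acids from acetyl-CoA by carboxylation, elongation and desaturation. The SREBP transcription factors induce genes of both routes. Scap escorts SREBPs out of the endoplasmic reticulum when sterols are scarce, and the Insig proteins hold that complex back when sterols are plentiful. In skin these lipids feed the water barrier of the epidermis and the secretion of sebaceous glands.

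Because SREBPs act through short promoter elements, often next to sites of the general factors NF-Y and Sp1, the 250 bases upstream of 4 members are printed for the letters that the members share. Hmgcs1 and Idi1 stand for the mevalonate route and Insig1 for its feedback, and Sec14l2 was the member with the largest TG minus CTR difference. Sequences are from RefSeq on the GRCm38.p6 build, written 5′ to 3′ on the strand of the gene. Capitals mark matches, in either orientation, to TCACNCCAC (an SREBP element), CACGTG (an E-box), CCAAT (an NF-Y box) and GGGCGG (a GC box bound by Sp1).
Hmgcs1 (chr13:119690101-119690350, plus strand): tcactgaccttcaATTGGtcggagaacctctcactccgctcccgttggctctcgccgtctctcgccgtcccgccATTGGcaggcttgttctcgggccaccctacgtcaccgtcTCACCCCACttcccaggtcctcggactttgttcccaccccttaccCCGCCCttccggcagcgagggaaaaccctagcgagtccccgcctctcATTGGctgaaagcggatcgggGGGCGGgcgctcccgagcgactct
Idi1 (chr13:8885356-8885605, plus strand): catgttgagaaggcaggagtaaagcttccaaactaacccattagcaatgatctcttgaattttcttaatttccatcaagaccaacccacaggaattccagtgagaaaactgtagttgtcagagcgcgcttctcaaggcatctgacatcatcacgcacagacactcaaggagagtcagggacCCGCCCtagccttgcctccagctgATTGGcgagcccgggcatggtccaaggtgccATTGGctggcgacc
Insig1 (chr5:28071162-28071411, plus strand): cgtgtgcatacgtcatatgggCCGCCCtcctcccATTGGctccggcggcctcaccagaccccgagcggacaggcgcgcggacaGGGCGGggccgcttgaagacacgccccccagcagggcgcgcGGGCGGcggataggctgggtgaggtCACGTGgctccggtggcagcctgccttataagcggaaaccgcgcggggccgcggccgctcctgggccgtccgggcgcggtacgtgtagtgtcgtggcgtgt
Sec14l2 (chr11:4118730-4118979, minus strand): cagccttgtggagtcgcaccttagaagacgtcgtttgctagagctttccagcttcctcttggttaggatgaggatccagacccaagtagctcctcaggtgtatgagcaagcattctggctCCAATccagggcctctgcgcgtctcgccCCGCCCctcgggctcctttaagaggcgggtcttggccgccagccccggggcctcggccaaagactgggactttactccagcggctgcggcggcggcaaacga

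All 4 stretches held both a CCAAT and a GGGCGG match. The SREBP element was found upstream of Hmgcs1, at -137 from the start of transcription, and the E-box upstream of Insig1, at -101. Across the 24 members with an entry in the promoter table, whole windows, from 250 bases upstream to 50 bases downstream of any listed start, were searched on both strands. CCAAT was present for 20 of 24 members and for 41.1% of the 27025 genes in the table. The 4 members without it were Acat2, Scap, Acaca and Elovl6. GGGCGG was present for 19 of 24 members and for 38.2% of all genes. CACGTG was present for 4 of 24 members (Hsd17b7, Dhcr7, Scap and Insig1) and for 8.09% of all genes. TCACNCCAC was present for 1 of 24, Hmgcs1, against 1.44% of all genes. The shares of all genes cover the whole promoter table, whatever the level in these papillomas. Shares among genes as abundant as the members were not counted, so nothing is read from the gaps. No entry was found for Fdps, Fdft1, Sqle, Stard4, Scd1, Scd2 and Elovl3. A match is a string of letters and not a measured binding site. Sites spelled otherwise were not searched, so a missing match does not show that a site is absent.

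Members were among the more abundant mRNAs of the papillomas. Their median level stood at percentile 85.2 of the 12299 genes tested, and 9 of 30 lay above percentile 90. Reads implied by the authors' confidence intervals ran from 85 to 8116 per papilloma for these 30 genes. Read totals implied in the same way were between 10074859 and 15710562 per library, highest in CTR 3 and TG 1. Nanog, the check of the labels, was at 36.9, 57.4 and 66.9 FPKM in TG 1 to TG 3 and at 2.70, 2.84, 12.7 and 3.34 FPKM in CTR 1 to CTR 4.

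The cell type markers set TG 3 apart from the other 6 libraries. Summed over 8 keratinocyte markers, the level was 17181 to 20368 FPKM in CTR and 27390, 23142 and 13928 FPKM in TG 1 to TG 3, and no marker was absent. Skeletal muscle markers (10 genes) summed to 8.98 to 14.0 FPKM in CTR, 8.82 and 9.26 FPKM in TG 1 and TG 2, and 743 FPKM in TG 3. Fibroblast markers (8 genes) summed to 75.9 to 132 FPKM in CTR and to 93.4, 90.2 and 704 FPKM in TG 1 to TG 3. All 10 muscle and all 8 fibroblast markers were highest in TG 3. Sums for endothelium (6 genes) were 9.30 to 15.2 FPKM in CTR against 23.1, 12.4 and 31.5 FPKM, and for leukocytes (6 genes) 20.0 to 25.1 FPKM against 20.5, 24.4 and 43.9 FPKM. The median FPKM of all entries without a failed estimate, before summing by symbol, was 1.04 in TG 3 and 0.477 to 0.594 elsewhere. The part of these cell types in the member values was not tested, and member differences are therefore given with TG 3 and, second, without it.

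Differences are TG minus CTR means of log2(FPKM + 0.5), a scale that understates the change of low genes, with a standard error (SE) from a limma fit over all 12299 genes. Of the 30 members, 28 differed by less than 0.5, as did 86.2% of all genes. Of the 30, 2 were higher in TG by at least 1 (Sec14l2 and Scd1) and 0 lower by at least 1, where 2.24% and 0.626% of all genes were. The change of the group means, as a ratio, was smaller than the ratio of highest to lowest CTR value for 27 of 30. That sets a full range against a change of averages. The share over all genes was not counted, so nothing is read from it. The member median was 0.10, and the median of all genes was 0.06. Above 0 were 20 of 30 members, where the background was 60.0% of genes, and the number was 15 after upper-quartile scaling and 17 after quantile normalization. Without TG 3 the member median was -0.003 and that of all genes -0.03, with 15 of 30 members above 0. By limma with Benjamini-Hochberg adjustment, 0 of 30 members were higher and 0 lower in TG (background 0.0% each way). At an unadjusted p under 0.05 the count was 2 higher (Sec14l2 and Scd1) and 0 lower, with backgrounds of 4.86% and 1.96% of genes. Those backgrounds are 598 and 241 genes, which became 515 and 418 after upper-quartile scaling and 403 and 551 after quantile normalization. All 3 TG values lay above all 4 CTR values for Scap, Insig2 and Scd1 and below them for 0 members, against backgrounds of 4.93% and 2.23%.

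**Figure D1:**
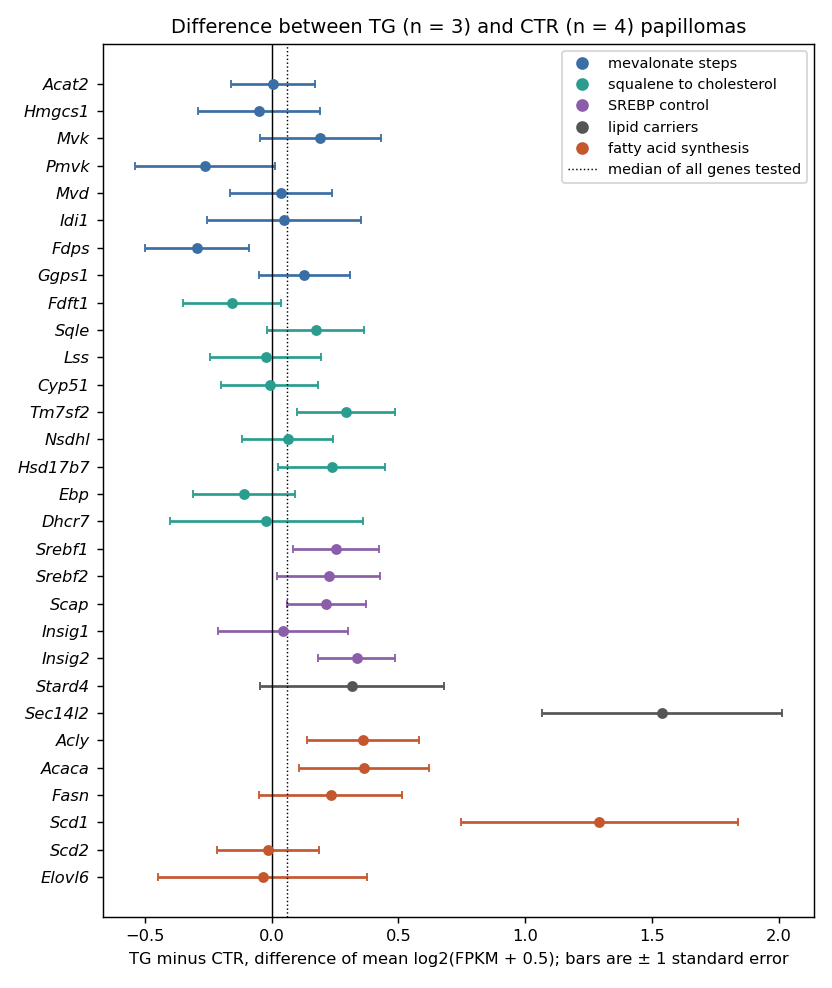
Difference between TG (n = 3) and CTR (n = 4) papillomas for the 30 members tested, as TG minus CTR means of log2(FPKM + 0.5) with bars of 1 standard error, coloured by role; the dotted line is the median of all genes. Points crowd around 0, and Sec14l2 (1.54) and Scd1 (1.29) lie apart with the widest bars.

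The mevalonate steps were led by Fdps, farnesyl diphosphate synthase, which makes the last shared precursor of sterols and prenyl groups. Fdps was at 141, 159, 213 and 135 FPKM in CTR 1 to CTR 4 and at 148, 122 and 122 FPKM in TG 1 to TG 3 (162 ± 35.5 in CTR and 131 ± 14.8 in TG, SD). The groups overlapped, and the difference was -0.29 (SE 0.20), or -0.25 without TG 3. Of the 40-base windows of its transcript, 88.7% also occur in transcripts of other genes, so the level of Fdps is uncertain.

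Hmgcs1, the cytosolic HMG-CoA synthase, was at 97.9, 63.1, 81.2 and 84.8 FPKM in CTR and at 55.0, 90.9 and 95.0 FPKM in TG. Its lowest value was TG 1 and its highest CTR 1, with a difference of -0.05 (SE 0.24), or -0.19 without TG 3. Idi1, isopentenyl diphosphate isomerase, ranged from 49.9 FPKM in CTR 2 to 113 FPKM in TG 3 (difference 0.05, SE 0.30), and its difference was -0.21 without TG 3. For both enzymes the papillomas of a group differed more than the group means.

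Acat2, the thiolase at the head of the route, was at 43.5 to 55.2 FPKM in the 7 papillomas (difference 0.01, 0.08 without TG 3), with 48.0% of its windows shared with Acat3. The kinases Mvk (17.8 to 31.5 FPKM, difference 0.19, 0.42 without TG 3) and Pmvk (20.3 to 42.6 FPKM, difference -0.26, -0.09 without) and the decarboxylase Mvd (20.6 to 35.3 FPKM, difference 0.04, -0.02 without) carry mevalonate to isopentenyl diphosphate. Ggps1, which makes geranylgeranyl diphosphate, was the lowest of the 8 at 4.12 to 6.36 FPKM (difference 0.13, -0.03 without TG 3). Over the 8 genes the median difference was 0.02, and -0.06 without TG 3.

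From squalene to cholesterol, Sqle, the squalene epoxidase and a control point of the late pathway, had the highest mean level. It was at 79.2, 60.3, 81.8 and 79.5 FPKM in CTR and at 68.0, 96.4 and 91.2 FPKM in TG (75.2 ± 10.0 and 85.2 ± 15.1, SD; difference 0.17, SE 0.19, or 0.12 without TG 3). TG 2 and TG 3 were above every CTR papilloma and TG 1 was not. Fdft1, the squalene synthase, was at 31.2 to 54.2 FPKM (difference -0.16, -0.27 without TG 3), and Lss, which closes the ring to lanosterol, at 18.5 to 34.0 FPKM (difference -0.02, -0.12 without).

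Cyp51, the lanosterol demethylase, spanned 31.4 to 46.7 FPKM with a difference of -0.01, or -0.15 without TG 3. The sterol reductase Tm7sf2 was the lowest of the 9 genes (4.66 to 8.80 FPKM) and had the largest difference among them, 0.29 (SE 0.19), or 0.34 without TG 3. Nsdhl (21.3 to 30.4 FPKM, difference 0.06, -0.07 without TG 3) and Hsd17b7 (19.4 to 38.7 FPKM, difference 0.24, 0.31 without) remove the methyl groups of the sterol ring, and the isomerase Ebp (24.6 to 39.0 FPKM, difference -0.11, 0.01 without) follows them. Dhcr7, the final reductase to cholesterol, varied most of the 9 within CTR, from 14.2 FPKM in CTR 2 to 49.6 FPKM in CTR 1, while TG lay inside that range at 20.2, 33.0 and 31.4 FPKM (difference -0.02, -0.11 without TG 3). The median difference of the 9 genes was -0.01, and -0.07 without TG 3.

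**Figure D2:**
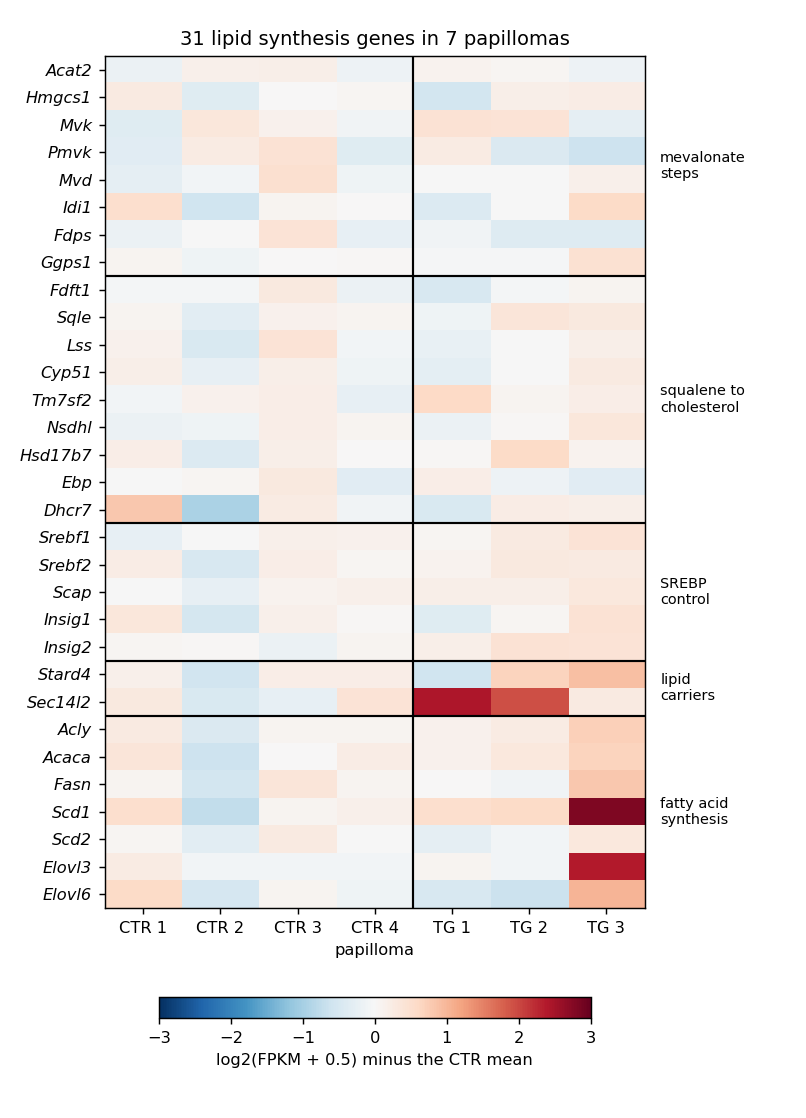
Each of the 31 members (rows, by role) in each of the 7 papillomas (columns), coloured by log2(FPKM + 0.5) minus the mean of the 4 CTR papillomas. The deepest red cells are Scd1 and Elovl3 in TG 3 and Sec14l2 in TG 1 and TG 2, and CTR 2 is pale blue for most sterol and fatty acid genes.

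All 5 genes of SREBP control had a difference above 0, by 0.05 to 0.34, where 60.0% of all genes were above 0. Their median was 0.22 (0.17 without TG 3), against 0.06 (-0.03 without TG 3) for all genes. Insig1, however, was below 0 without TG 3 and after upper-quartile or quantile scaling. Insig2, an endoplasmic reticulum anchor of Scap (chr1:121304353-121332580, GRCm38, as for all loci here), was at 10.4, 10.3, 8.81 and 10.6 FPKM in CTR and 11.4, 13.7 and 13.4 FPKM in TG (10.0 ± 0.828 and 12.8 ± 1.26, SD). Every TG value was above every CTR value, with a difference of 0.34 (SE 0.15), and 0.30 without TG 3. Scap (chr9:110333293-110384946) was at 21.3, 18.3, 23.3 and 24.1 FPKM in CTR and 24.4, 24.4 and 26.9 FPKM in TG. Its groups also did not touch, though CTR 4 and TG 1 were close, and the difference was 0.22 (SE 0.15), or 0.17 without TG 3.

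Srebf2, the SREBP linked mainly to sterol genes, was at 37.7, 22.6, 36.7 and 33.6 FPKM in CTR and at 34.5, 39.3 and 39.0 FPKM in TG (difference 0.22, SE 0.20, or 0.20 without TG 3). Srebf1, linked more to fatty acid genes, was at 8.56, 10.2, 11.4 and 11.3 FPKM in CTR and at 10.8, 12.6 and 13.9 FPKM in TG (difference 0.25, SE 0.17, or 0.17 without TG 3). Both overlapped between the groups. Insig1, itself an SREBP target, was at 23.2, 12.5, 20.3 and 18.7 FPKM in CTR and at 14.0, 19.1 and 25.0 FPKM in TG (difference 0.05, SE 0.26, or -0.15 without TG 3). Unlike Insig2, its low values were split between CTR 2 and TG 1.

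The balance between related genes is a different measure from the TG minus CTR difference, though the pairs were chosen with earlier results known. It was compared within the 7 papillomas on FPKM, which is scaled for length. Srebf2 exceeded Srebf1 in 7 of 7 papillomas, by 2.21 to 4.40 times (mean log2 ratio of FPKM + 0.5 of 1.58, SD 0.287). Insig1 exceeded Insig2 in 7 of 7, by 1.22 to 2.31 times (mean log2 ratio 0.71, SD 0.371). Scd2 exceeded Scd1 in 7 of 7, by 1.51 times in TG 3 to 13.0 times in CTR 2 (mean log2 ratio 2.52, SD 0.958). Elovl6 exceeded Elovl3 in 7 of 7 as well, with a mean log2 ratio of 3.68 (SD 0.565) that leans on the added 0.5, since Elovl3 was near or at 0. In a 2-sided exact permutation test of sign changes, the Srebf, Insig and Scd pairs each gave p = 0.0156. That is the smallest that 7 papillomas allow, and it was 0.0156 after Benjamini-Hochberg adjustment over the 4 pairs compared. Any genes with the same order in every papilloma give this p, so it adds nothing to the 7 of 7 counts. The Elovl pair gave the same value, from which nothing is read because Elovl3 was listed at 0 in most papillomas. The order within the Srebf, Insig and Scd pairs was the same in every papilloma, while the size of the ratio varied.

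**Figure D3:**
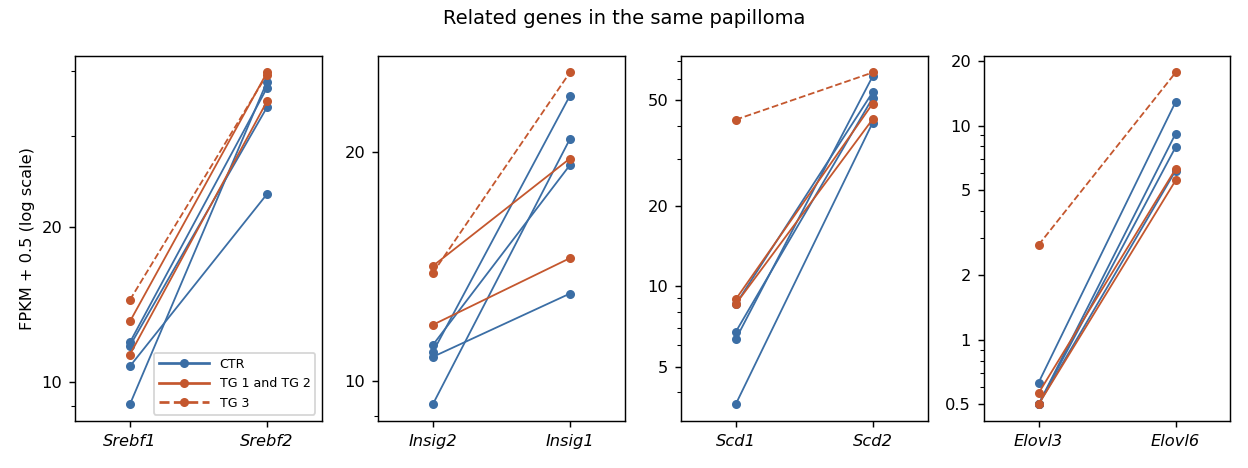
FPKM + 0.5 on a log axis for 4 pairs of related genes, with a line for each of the 7 papillomas (blue CTR, orange TG, dashed TG 3). Every line rises from the gene on the left to the gene on the right, and the Scd1 to Scd2 line of TG 3 is the flattest of its panel, at 1.51 times.

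The lipid carriers held the largest difference of the module. Sec14l2, also known as supernatant protein factor, binds lipids and squalene (chr11:4097040-4118729). It was at 2.73, 1.42, 1.73 and 3.03 FPKM in CTR and at 13.6, 9.61 and 2.68 FPKM in TG (2.23 ± 0.776 and 8.63 ± 5.53, SD). TG 1 and TG 2 were well above all CTR papillomas, and TG 3 fell inside the CTR range. The difference was 1.54 (SE 0.47), and 2.18 without TG 3. By limma with Benjamini-Hochberg adjustment Sec14l2 was not called with all papillomas, but it was among the 9 genes higher in TG without TG 3 (backgrounds of 0.0751% of genes higher and 0.0667% lower) and the 49 higher when libraries were weighted by quality (0.398% and 0.293%). The paper's own test of the same papillomas listed Sec14l2 among the genes upregulated in TG. Since the contrast was known when the gene was listed, nothing more is read from these calls.

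Among the 8 keratinocyte markers, Krt1 and Krt10, which mark differentiating cells, were also high in TG 1 and TG 2 and low in TG 3, a pair singled out after the values were seen. Krt10 was at 3150, 3133 and 181 FPKM in TG 1 to TG 3 and at 917 to 1440 FPKM in CTR, and Krt1 at 1517, 3309 and 133 FPKM against 187 to 807 FPKM. Unlike Sec14l2, both were below every CTR papilloma in TG 3. The list did not move as a whole, since Krt5 and Dsg3 were highest in TG 3. The part of differentiated keratinocytes in the Sec14l2 values was not tested. Stard4, a carrier of cholesterol between membranes, followed another order, at 11.6, 6.83, 11.9 and 12.0 FPKM in CTR and 6.64, 16.6 and 19.7 FPKM in TG. Its lowest value was in TG 1, where Sec14l2 was highest, and the difference was 0.32 (SE 0.36), or 0.03 without TG 3.

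Fatty acid synthesis was the role in which TG 3 stood out. All 6 tested genes (Acly, Acaca, Fasn, Scd1, Scd2 and Elovl6) were highest in TG 3, where 41.1% of all genes were, and all 6 had their lowest CTR value in CTR 2, as did 47.6% of all genes. The median difference of the 6 genes was 0.30, and 0.06 without TG 3. Relative to the mean of the 7 papillomas, the median of the role was 0.64 in TG 3 and -0.61 in CTR 2 on the log2 scale, against 0.21 and -0.17 for all genes.

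Scd1, the stearoyl-CoA desaturase of sebaceous glands and fat (chr19:44394450-44407709), was at 8.05, 3.11, 5.83 and 6.24 FPKM in CTR and 8.07, 8.43 and 41.6 FPKM in TG (5.81 ± 2.04 and 19.4 ± 19.2, SD). All TG values were above all CTR values, but TG 1 and CTR 1 were nearly equal and TG 3 carried most of the difference of 1.29 (SE 0.55). Without TG 3 the difference was 0.54. Scd2, the related desaturase of many other tissues, was at 52.9, 40.6, 60.8 and 50.3 FPKM in CTR and at 41.8, 47.9 and 62.7 FPKM in TG, with a difference of -0.02 (SE 0.20), or -0.18 without TG 3.

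The gap between TG 3 and the other TG papillomas was thus far wider for Scd1 than for Scd2, and the Scd2 over Scd1 ratio was 5.18, 5.68 and 1.51 in TG 1 to TG 3 against 6.57, 13.0, 10.4 and 8.07 in CTR. Elovl3, an elongase known from sebaceous glands and brown fat (chr19:46131899-46135694), was listed at 0 in CTR 2, CTR 3, CTR 4 and TG 2, at 0.131 and 0.0639 FPKM in CTR 1 and TG 1, and at 2.27 FPKM in TG 3. The implied reads for Elovl3 were 86 in TG 3 and at most 5 elsewhere. Elovl6, which lengthens palmitate, was at 12.4, 5.67, 8.68 and 7.44 FPKM in CTR and at 5.78, 5.05 and 17.2 FPKM in TG. With TG 3 its difference was -0.04 (SE 0.41), and without TG 3 it was -0.56.

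The enzymes that make palmitate varied less across papillomas than Scd1 and Elovl6, though more than Scd2. Acly, which supplies cytosolic acetyl-CoA, was at 27.4 to 61.6 FPKM (difference 0.36, 0.18 without TG 3). Acaca, the acetyl-CoA carboxylase, was at 4.15 to 10.7 FPKM (difference 0.37, 0.22 without TG 3), with 54.8% of its windows shared with Gm5182. Fasn, the fatty acid synthase, was at 13.5 to 25.6 FPKM in CTR and at 19.9, 18.3 and 35.3 FPKM in TG (difference 0.23, -0.06 without TG 3). For each of these 3 genes TG 1 and TG 2 lay inside the CTR range and TG 3 above it.

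Sebocyte markers were highest in TG 3 as a sum, and the sum of the adipocyte list was not. The 10 sebocyte markers summed to 51.5 to 79.4 FPKM in CTR and to 42.1, 54.8 and 104 FPKM in TG 1 to TG 3. Of the 10, 8 were highest in TG 3, and Mc5r was at 0 in all CTR papillomas. Among the 6 above the level filter, 4 were highest in TG 3, against 41.1% of all genes. Mgst1 and Cidea, neither highest in TG 3, made up most of the sum elsewhere. Without them, a subset chosen after the values were seen, the sum was 2.77 to 10.1 FPKM in CTR. In TG 1 to TG 3 it was 2.62, 3.22 and 52.1 FPKM, with Krt79 at 36.3 FPKM in TG 3. Mc5r, Awat1, Awat2 and Plin5 reached only 0.148, 0.767, 0.890 and 0.146 FPKM in TG 3. The 10 adipocyte markers summed to 1386 to 3263 FPKM in CTR and to 1558, 2287 and 1746 FPKM in TG, a sum taken up by Fabp4. Pparg, the regulator of fat cell genes, was at 9.09, 6.22, 7.67 and 3.51 FPKM in CTR and at 2.25, 1.26 and 3.66 FPKM in TG (difference -1.32). Lipe was at 5.55 to 26.9 FPKM in CTR and at 10.4, 16.5 and 27.45 FPKM in TG 1 to TG 3. Without Fabp4 alone, the sum was 12.0 to 34.9 FPKM in CTR and 13.0, 18.2 and 66.5 FPKM in TG 1 to TG 3. Outside Fabp4, Pparg and Lipe, a subset chosen after the values were seen, the sum was 0.206 to 0.308 FPKM in CTR. That smaller sum was 0.320 and 0.519 FPKM in TG 1 and TG 2, and 35.4 FPKM in TG 3. Adipoq, Plin1, Cidec, Lep and Retn were at 0 in all CTR papillomas. The part of these cells in the levels of Scd1, Elovl3 and the other fatty acid genes was not tested.

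**Figure D4:**
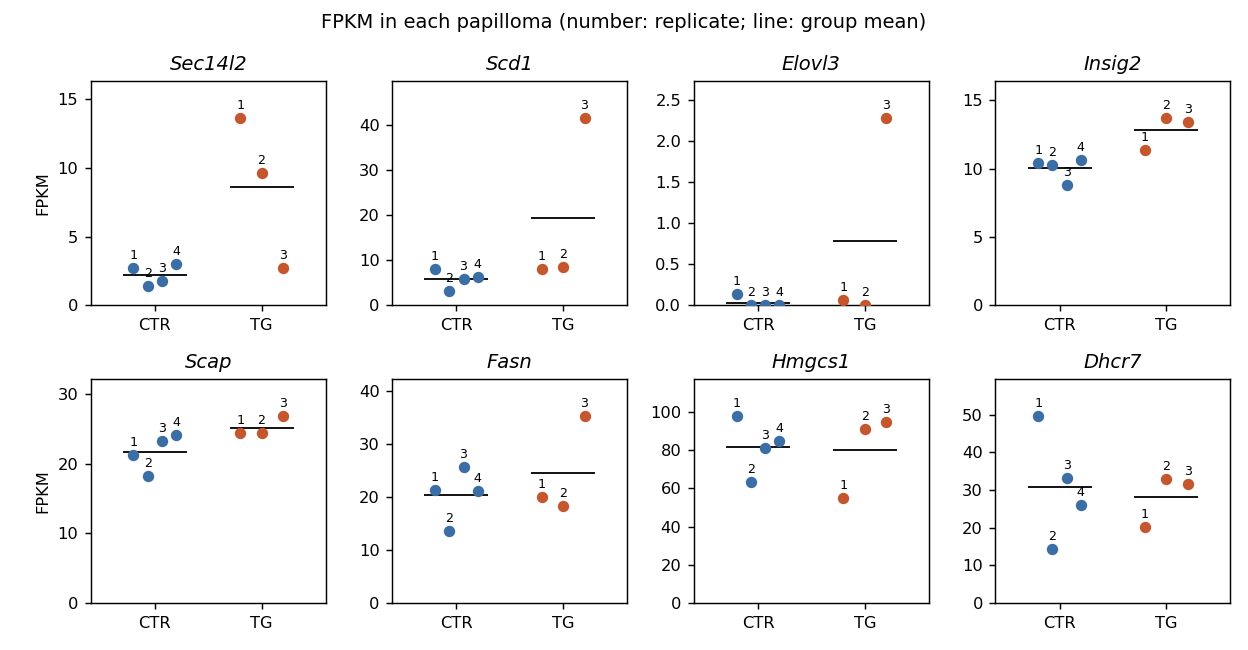
FPKM of 8 members in each papilloma, on linear axes from 0, with points numbered by replicate (4 CTR, 3 TG) and a line at each group mean. TG 3 is far above the rest for Scd1 (41.6) and Elovl3 (2.27) and near the CTR points for Sec14l2 (2.68), and the TG points of Insig2 and Scap lie just above the CTR points.

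Variation among CTR papillomas was of the same order as in other genes. The highest CTR value exceeded the lowest by a median of 1.61 times over the 30 members and 1.58 times over 12202 genes. CTR 2 was the lowest CTR papilloma for 19 of 30 members, against 47.6% of all genes, and the lowest of all 7 papillomas for 15 of 30, against 30.2%. TG 3 was the highest of all 7 papillomas for 14 of 30 members, against 41.1% of all genes.

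Other genes of the same pathways were read from a list of 45, of which 38 could be tested. By limma with adjustment 0 of 38 were higher and 0 lower, and at an unadjusted p under 0.05 there were 7 higher and 0 lower, against 4.86% and 1.96% of all genes. Groups did not overlap for 5 of 38, all higher in TG, against 4.93% of all genes higher and 2.23% lower: 1 of 9 in sterol uptake and SREBP processing, 1 of 7 in export and storage, 3 of 18 in fatty acid synthesis and desaturation, and 0 of 4 in the remaining sterol steps. The median difference of the 38 genes was 0.08. This list too was chosen with earlier results of these data known, so nothing is read from its counts.

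Apoe, a lipoprotein component made by many cell types, was at 188, 91.1, 105 and 107 FPKM in CTR and at 236, 302 and 190 FPKM in TG, with a difference of 1.02 (SE 0.28), or 1.18 without TG 3. Dgat1, which completes triglycerides, was at 5.83, 8.82, 8.45 and 8.20 FPKM in CTR and at 13.3, 15.9 and 13.5 FPKM in TG, with a difference of 0.84 (SE 0.18), or 0.87 without TG 3. TG 3 was not the highest of the 7 for either gene. Npc2, a lysosomal sterol carrier, was at 18.3 to 27.5 FPKM in CTR and 30.8 to 37.8 FPKM in TG (difference 0.48, 0.47 without TG 3). The elongase Elovl5 was at 3.29 to 5.13 FPKM in CTR and 5.22 to 9.09 FPKM in TG (difference 0.63, 0.45 without), and the acyl-CoA synthetase Acsl1 at 14.7 to 18.2 FPKM in CTR and 20.6 to 29.4 FPKM in TG (difference 0.50, 0.59 without).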

How the data were processed

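Poly(A) RNA of 7 papillomas was measured by stranded RNA-seq (TruSeq dUTP, Genome Analyzer IIx, short single reads), 1 library per mouse. The authors aligned reads to GRCm38 (TopHat 2.0.4 on Bowtie 0.12.7; SAMtools 0.1.16) and made the deposited FPKM values with Cufflinks 1.3.0; reads shared between genes can raise or split a level. Entries of a symbol were summed, and 162 symbols with a failed estimate in any file were left out, leaving 23122. Reads per gene were implied from the width of the deposited confidence intervals and cover counting error only. Groups followed the labels.

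TG was compared with CTR by limma 3.58.1 (R 4.3.3; variance trend, Benjamini-Hochberg threshold 0.05) on log2(FPKM + 0.5) for 12299 genes (mean FPKM of 0.5 or more), without a replicate block; the authors' own test needs reads and was not run. The fit was tested on simulated data. Pairs of related genes were compared by exact permutation over papillomas (scipy 1.17.1). Promoter letters and the sharing of 40-base windows among GENCODE M21 transcripts were counted in Python 3.11.15. All 31 members were named; values in every papilloma were given for members whose groups did not overlap, the highest of each role, the 4 pairs and absolute differences of at least 1, and Hmgcs1, Dhcr7 and Fasn were added after they were seen. Other pathway genes were given values where their groups did not overlap, some items are not reported here, and cell type lists were given as sums. Members, lists and tests were chosen with earlier results of these data known. Alternatives (20) covered the pseudocount, filter, scaling, moderation, weights, block, entries and left-out libraries.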

Additional observations from a re-analysis of the deposited data

Results flagged for a closer look

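In 4 of 33 genes checked, 1 of the 4 CTR papillomas lay far from the other 3. The gap to its nearest neighbour was above 0.829 of the CTR range. For normally distributed values chance gives about 1 in 20, a rate that does not hold for values tied at 0. Sqle was low in CTR 2 at 60.3 FPKM (gap 0.882 of the range). Stard4 was low in CTR 2 as well, at 6.83 FPKM (0.922). Elovl3 was at 0.131 FPKM in CTR 1 and listed at 0 in the other 3 (1.0). With the other values tied at 0 that gap was fixed in advance, so nothing is read from the Elovl3 flag. Nanog was high in CTR 3 at 12.7 FPKM (0.936), below every TG papilloma.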

How the results depend on the processing

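Of the members tested, 0 were lower in TG under any of the 20 alternatives, and 0 were higher except under sample quality weights (1, Sec14l2) and without TG 3 (1, Sec14l2), so leaving out 1 papilloma gave 0 to 1. Over all genes, sample quality weights gave 49 higher and 36 lower where 0 and 0 were called, and leaving out the deeper libraries CTR 3 and TG 1 gave 1 higher. Leaving out 1 papilloma gave 0 to 9 genes higher (1 without CTR 3, 2 without TG 1, 9 without TG 3) and 0 to 8 lower (8 without TG 3). Without CTR 3 and TG 1 the median difference was 0.16 for mevalonate steps, 0.22 for squalene to cholesterol and 0.11 for Fdft1. Leaving out 1 papilloma moved the mevalonate median between -0.069 (without CTR 2) and 0.070 (without CTR 3). The cause of these shifts was not tested. The median of all genes was 0.06, 0.00 after upper-quartile scaling and -0.03 after quantile normalization, and members above 0 numbered 20, 15 and 17 of 30; Acat2, Mvd and Insig1 changed sign under both. Calls at an unadjusted p under 0.05, 598 higher and 241 lower, were 515 and 418 after upper-quartile scaling, 403 and 551 after quantile normalization and 1161 and 1248 with weights. Same-numbered papillomas did not deviate together (r -0.186, 0.0431 and -0.146), and a replicate block gave 0 calls each way, 505 and 170 at an unadjusted p under 0.05, and a member median of 0.12. The order within the 4 pairs held under every alternative run. Elovl3 rests on few reads outside TG 3, so its level elsewhere is poorly resolved at this depth.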
